A study of Mus musculus with 16 samples.

Results

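Collagens are matrix proteins whose chains wind into helical trimers, and each chain is encoded by its own gene. The 44 genes described here are all protein-coding mouse genes whose symbol has the form of a collagen chain (Col, a type number, a and a chain number). They were picked by symbol alone from the 55359 gene identifiers counted, of which 21877 are protein-coding. By the form of matrix they build they fall into 11 fibrillar chains, 6 collagen IV chains, 7 chains of types VI and XXVIII, 4 chains of types VII, VIII and X, 9 fibril-associated chains, 4 transmembrane chains and 3 chains of types XV, XVIII and XXVI.

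RNA of whole ovary and whole kidney was sequenced from female CBAF1 mice, wild type and 21 days old, that received PT-2385, an inhibitor of the transcription factor HIF-2 alpha (encoded by Epas1), or vehicle. PT-2385 was given intraperitoneally at 7.5 mg/kg and the vehicle was 5% DMSO in saline, both every 12 h over 4 days. All mice, controls included, were also given 5 IU PMSG, a gonadotrophin that makes follicles grow, for 48 h and then 5 IU hCG, which triggers ovulation, for 13 h, when both organs were taken. The 4 groups of 4 libraries are vehicle ovary, PT-2385 ovary, vehicle kidney and PT-2385 kidney. The labels do not say whether libraries of a group came from separate mice, so p-values measure the spread between these libraries, which may be partly technical. RNA came off columns for the ovaries and out of Trizol for the kidneys, so organ and isolation cannot be told apart in any comparison between organs.

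Fibrillar collagens such as types I and III give tissues their tensile strength, and type V starts and limits the width of those fibrils. Collagen IV is the network former of basement membranes: its Col4a1 and Col4a2 chains occur in nearly all of them, while Col4a3, Col4a4 and Col4a5 make up the network of the mature glomerular filter in the kidney. In the ovary, collagens I and III lie in the stroma and theca around follicles, collagen IV lies under the granulosa layer and around vessels, and the follicle wall is remodelled at ovulation.

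Library depth and identity were checked first. Assigned read pairs ran from 12689770 to 43295974 per library, and both extremes were in PT-2385 kidney, in replicates 2 and 3. Mitochondrial and haemoglobin genes took 10.1% to 11.7% of the counts in vehicle kidney and 11.8% to 12.6% in PT-2385 kidney, ranges that do not overlap, against 2.35% to 4.46% in ovary. The file of ovary vehicle replicate 3 carries another number than its label, and that of kidney PT-2385 replicate 3 another flow-cell code, and calls that were lost or gained without either library are given with their values. The granulosa markers Foxl2, Fshr and Cyp19a1 had no count in any of the 8 kidney libraries, and 7 granulosa markers summed to at most 8.59 CPM (counts scaled for library depth) in kidney against at least 1559.9 CPM in ovary. Of 6 proximal tubule markers the sum was at least 19458 CPM in kidney. In ovary it was 4.38 to 5.23 CPM in 7 libraries and 52.2 CPM in vehicle replicate 1.

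The collagen genes took a larger part of the ovary libraries than of the kidney libraries. Their share of all assigned pairs was 1.48% ± 0.150 (SD, n = 4) in vehicle ovary and 1.60% ± 0.139 in PT-2385 ovary, with single libraries between 1.36% and 1.73%. In kidney the share was 0.419% ± 0.0169 with vehicle and 0.404% ± 0.0108 with PT-2385, and no library lay above 0.437%. Levels of single chains are given below as CPM per kb, that is CPM scaled by TMM over all 16 libraries and divided by the exon length of the gene, so that chains can be compared with each other.

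In vehicle ovary, collagen IV, III and I chains led. Col4a1 stood at 585, 491, 749 and 606 CPM per kb in replicates 1 to 4, Col3a1, the only chain of collagen III, at 394, 387, 491 and 370.0, and Col4a2 at 326, 272, 419 and 329. Col1a2 and Col1a1, the chains of collagen I, stood at 185, 181, 211 and 169 and at 156, 156, 173 and 142. The means were 608 ± 107 for Col4a1, 411 ± 54.6 for Col3a1, 336 ± 60.7 for Col4a2, 187 ± 17.4 for Col1a2 and 157 ± 13.0 for Col1a1 (SD, n = 4). Within each of the 4 libraries Col4a1 was above Col3a1. Across libraries the 2 chains only just stayed apart, with Col4a1 at 491.49 in replicate 2 and Col3a1 at 491.03 in replicate 3. Col3a1 overlapped Col4a2, and Col1a2 overlapped Col1a1. These 5 chains made up 77.9% ± 1.51 of the summed level of all chains. Behind them came Col6a1 of the beaded filament collagen VI at 85.7, 99.1, 95.9 and 78.0, Col18a1, a basement membrane proteoglycan chain from which endostatin is cut, at 58.8, 60.8, 64.5 and 62.4, and Col5a2 at 49.9, 44.6, 62.5 and 49.7 CPM per kb. Col6a1 did not overlap Col18a1, and Col18a1 overlapped Col5a2. Ovary vehicle replicate 3 was the highest of the 4 for all 5 leading chains.

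Vehicle kidney had lower levels and another order, with the 4 collagen IV chains Col4a1 to Col4a4 in front. Col4a1 stood at 127, 126, 108 and 113 CPM per kb, Col4a2 at 80.6, 85.0, 76.2 and 77.8, Col4a3 at 70.3, 75.9, 63.0 and 61.1 and Col4a4 at 61.3, 63.7, 55.0 and 55.1 in replicates 1 to 4. Next were Col18a1 at 50.2, 55.8, 55.3 and 53.3, Col3a1 at 46.4, 47.2, 43.4 and 56.1, Col1a2 at 44.3, 46.3, 43.6 and 53.6 and Col1a1 at 28.9, 30.4, 32.1 and 38.3. The means were 119 ± 9.40 for Col4a1, 79.9 ± 3.85 for Col4a2, 67.6 ± 6.83 for Col4a3, 58.8 ± 4.41 for Col4a4, 53.7 ± 2.51 for Col18a1, 48.3 ± 5.51 for Col3a1, 47.0 ± 4.57 for Col1a2 and 32.4 ± 4.13 for Col1a1 (SD, n = 4). Col4a1 did not overlap Col4a2, nor Col4a2 Col4a3, but from Col4a3 to Col1a2 each chain overlapped the next in the order. The 5 leading chains held 57.0% ± 2.80 of the summed collagen level, which was 664 ± 24.0 CPM per kb in vehicle kidney against 2176 ± 273 in vehicle ovary.

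**Figure D1:**
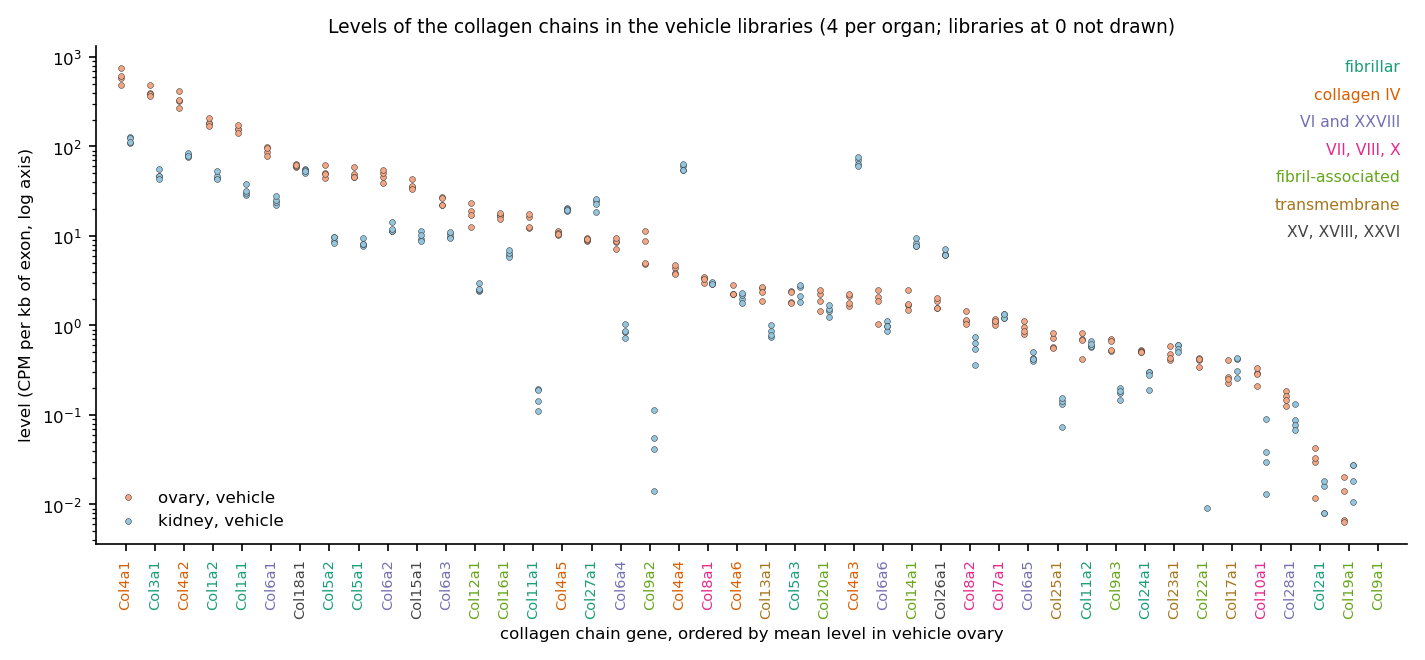
Level of each collagen chain gene (CPM per kb of exon, log axis) in the 4 vehicle ovary and 4 vehicle kidney libraries, 1 point per library, chains ordered by mean level in ovary and names coloured by class. Most chains sit higher in ovary; Col4a3 and Col4a4 stand out above their neighbours in kidney, with means of 67.6 and 58.8 against 1.95 and 4.19 in ovary.

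At the other end, several chains were near or at the limit of detection. Col9a1, which pairs with collagen II in cartilage, had 0 counts in all 8 ovary libraries and in vehicle kidney, and 3 counts in all in PT-2385 kidney. Col2a1, the cartilage fibril chain, had 20 counts over the 4 vehicle ovary libraries and 6 over the 4 vehicle kidney libraries. For Col19a1 these sums were 7 and 9. These 3 chains passed the filter on low counts in no comparison. In kidney the filter also removed Col10a1, Col22a1, Col28a1 and Col9a2, which left 37 chains tested there and 41 in each of the other comparisons.

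By class, the ovary was divided between 2 forms of matrix. Collagen IV chains made up 44.1% ± 3.00 and fibrillar chains 40.6% ± 1.63 of the summed collagen level in vehicle ovary (SD, n = 4). In vehicle kidney collagen IV made up 52.2% ± 2.98 and fibrillar chains 25.8% ± 2.04. Chains of types XV, XVIII and XXVI held 10.5% ± 0.539 in kidney and 4.65% ± 0.336 in ovary. The chains of types VI and XXVIII were at 8.01% ± 1.15 in ovary and 7.50% ± 0.609 in kidney, ranges that overlap. Fibril-associated chains held at most 3.14% in any vehicle library, and transmembrane chains at most 0.309%. In the PT-2385 groups the collagen IV share was 47.3% ± 1.01 in ovary, where the 2 groups overlapped, and 51.0% ± 2.24 in kidney.

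Most chains that join in 1 trimer were not at the same level, and for several of them the proportion differed between organs. The ratio of Col4a2 to Col4a1 was 0.553 ± 0.00674 in vehicle ovary and 0.675 ± 0.0308 in vehicle kidney, and that of Col1a2 to Col1a1 was 1.19 ± 0.0218 and 1.45 ± 0.0865 (SD, n = 4), in both cases without overlap between the vehicle libraries of the organs. Col5a2 and Col5a1 were nearly level in both, at ratios of 1.03 ± 0.0548 and 1.09 ± 0.109, with overlap. Within collagen VI, Col6a2 reached 0.527 ± 0.0272 of Col6a1 in ovary and 0.488 ± 0.0217 in kidney, with overlap, and Col6a3 0.273 ± 0.00960 and 0.410 ± 0.0326, without overlap. Among the glomerular chains Col4a4 was at 2.16 ± 0.111 times Col4a3 in ovary and 0.871 ± 0.0255 times in kidney, and Col4a5 at 5.60 ± 0.846 and 0.295 ± 0.0215 times Col4a3. Together, Col4a3, Col4a4 and Col4a5 reached 0.736 ± 0.0207 of the summed level of Col4a1 and Col4a2 in kidney and 0.0182 ± 0.00292 in ovary. Col11a2 was at 4.11 ± 1.26 times Col11a1 in kidney and at 0.0479 ± 0.0183 in ovary. These ratios are a description without a test, and their size depends on the exon length taken for each gene.

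The test of vehicle ovary against vehicle kidney (edgeR's quasi-likelihood test on counts, Benjamini-Hochberg adjustment over 18923 genes) called 34 of 41 chains, 28 higher and 6 lower in ovary. The called share, 82.9%, is near the 81.6% of all genes called in this comparison, where 40.9% of genes were higher in ovary and 40.7% lower. The median log2 fold change was 1.27 over the 41 chains and 0.0023 over all genes. Without TMM scaling all genes shift by 0.25 (median, log2) toward ovary, and on the TPM scale by 0.52. The 34 called chains kept their sign on both scales, while among the 7 chains not called 3 changed sign without TMM scaling and 4 on the TPM scale. In bulk RNA of whole organs, more cells of a type and more RNA per cell cannot be told apart.

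Among the fibrillar chains 7 of 10 tested were higher in ovary and Col27a1 was lower. Col3a1 was 3.10 log2 units higher (SE 0.13, adjusted p = 6.89e-11), Col1a1 2.28 and Col1a2 2.00, with the library values given above. Col5a1 stood at 49.3, 46.0, 59.1 and 45.3 CPM per kb in vehicle ovary and at 7.72, 8.10, 8.21 and 9.55 in vehicle kidney, a log2 difference of 2.58. Col5a2 was at 9.66, 8.75, 8.40 and 9.70 in kidney, with the ovary 2.51 log2 units higher. For none of these 5 chains did the organs overlap. The widest gap was that of Col11a1, a minor chain of thin cartilage-type fibrils, at 16.1, 12.2, 17.6 and 12.5 in ovary and 0.193, 0.190, 0.142 and 0.111 in kidney, 6.52 log2 units apart (SE 0.19, adjusted p = 6.84e-12). Its partner Col11a2 did not differ detectably (log2 0.12, SE 0.19, adjusted p = 0.576). Col24a1 was at 0.530, 0.520, 0.509 and 0.505 in ovary and 0.190, 0.301, 0.304 and 0.279 in kidney (log2 0.95). Col27a1, a fibrillar chain known from cartilage, went the other way, at 9.60, 8.77, 9.13 and 9.21 in ovary and 18.6, 24.4, 26.2 and 22.5 in kidney (log2 -1.31), and Col5a3 was not called (log2 -0.17, SE 0.15).

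Collagen IV split into 2 sets. Col4a1 and Col4a2 were higher in ovary by 2.37 (SE 0.14, adjusted p = 2.21e-09) and 2.08 log2 units. The glomerular chains were lower in ovary. Col4a3 was at 2.14, 1.65, 2.22 and 1.77 CPM per kb there (log2 -5.11, SE 0.13, adjusted p = 5.75e-13) and Col4a4 at 4.42, 3.84, 4.74 and 3.75 (log2 -3.80, SE 0.10). Col4a5 had the smallest gap of the called chains of this class, at 11.3, 10.9, 10.2 and 10.5 in ovary and 20.7, 20.3, 18.8 and 19.5 in kidney (log2 -0.88, SE 0.065). Col4a6, which joins Col4a5 in other basement membranes, was at 2.83, 2.26, 2.25 and 2.22 and 1.98, 2.17, 1.80 and 2.30 and was not called (log2 0.22, adjusted p = 0.0789). Beside the glomerular chains, the 6 podocyte markers summed to 449 to 555 CPM in vehicle ovary and 642 to 783 CPM in vehicle kidney. Synpo and Wt1, which the ovary also expresses, made up most of the ovary sum with 314 ± 40.3 and 74.4 ± 7.73 CPM. Nphs1 had no count in any PT-2385 ovary library.

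**Figure D2:**
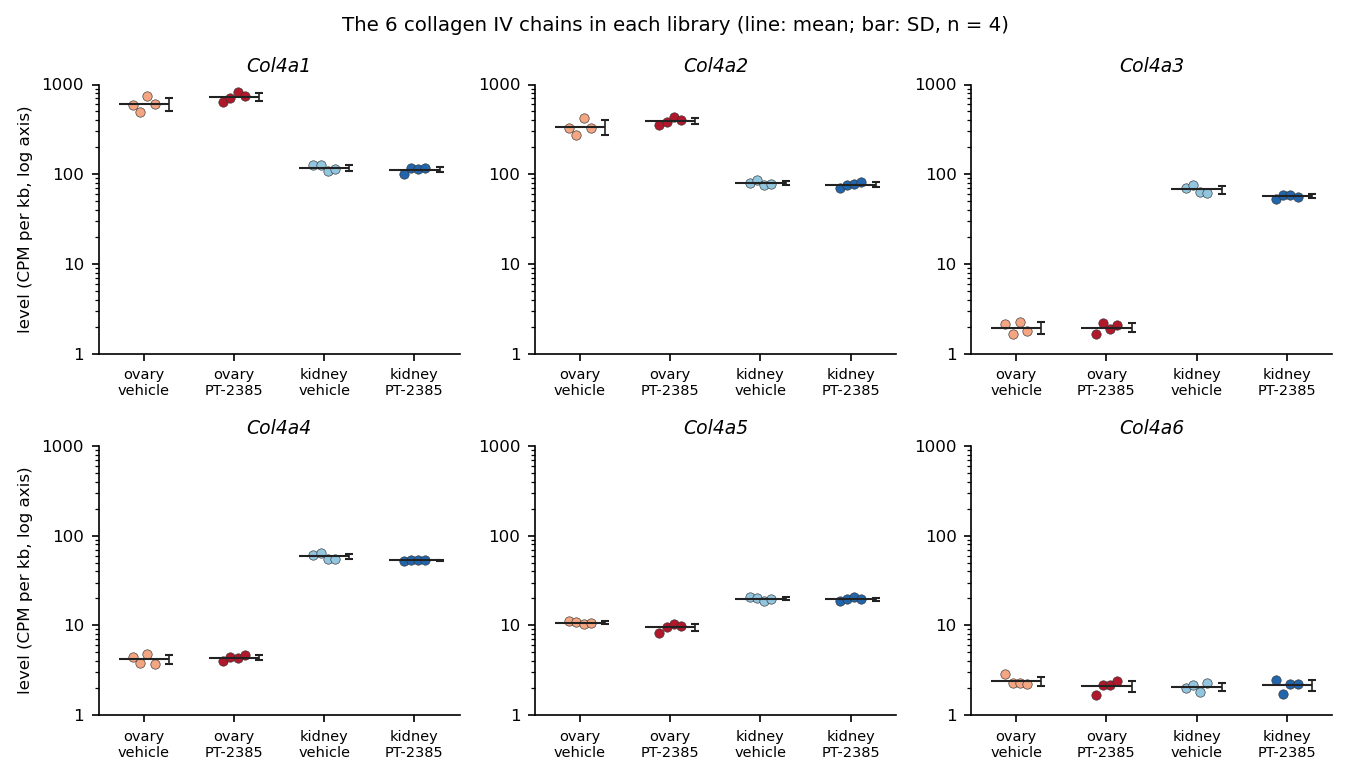
Level (CPM per kb, log axis) of the 6 collagen IV chains in each library of the 4 groups, with the mean as a line and the SD as a bar (n = 4). Col4a1 and Col4a2 sit higher in ovary, Col4a3 and Col4a4 lie above 50 in kidney and below 5 in ovary, and Col4a6 lies between 1.68 and 2.83 in all groups.

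The 6 collagen IV genes lie in 3 pairs that start close together and are read in opposite directions. In the coordinates of the count files (GRCm39), the start sites of Col4a4 (minus strand) and Col4a3 (plus strand) on chromosome 1 are 127 bases apart, those of Col4a1 and Col4a2 on chromosome 8 overlap by 21 bases, and those of Col4a6 and Col4a5 on chromosome X are 1309 bases apart. Both members of the first pair were higher in kidney, both of the second higher in ovary, and of the third pair Col4a5 alone was called. The stretch between the starts of Col4a4 and Col4a3 on GRCm38.p6 (chr1:82586850-82586920, given on the minus strand, that of Col4a4; sequence from RefSeq, starts from GENCODE release 21) is shown because it lies between the 2 chains with the largest excess in kidney. It holds neither of the HIF core motifs described below. The 250 bases before the Col4a4 start, which include this stretch, hold 1 ACGTG outside it.
Col4a4-Col4a3: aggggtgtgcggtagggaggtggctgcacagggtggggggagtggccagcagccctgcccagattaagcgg

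All 7 chains of types VI and XXVIII were higher in ovary. Col6a1 was at 22.4, 24.1, 25.3 and 28.1 CPM per kb in vehicle kidney, 1.85 log2 units below ovary. Col6a2 was at 45.0, 51.1, 54.2 and 39.2 in ovary and 11.2, 11.3, 11.9 and 14.4 in kidney (log2 1.97), and Col6a3 at 22.2, 27.1, 26.5 and 21.9 and 9.73, 10.6, 9.48 and 11.0 (log2 1.27). These 3 make up the common collagen VI of connective tissue, and none overlapped between the organs. Of the chains that can stand in for Col6a3, Col6a4 had the widest gap, at 8.49, 8.88, 9.56 and 7.06 in ovary and 1.03, 0.721, 0.852 and 0.872 in kidney (log2 3.30, SE 0.12, adjusted p = 2.59e-11). Col6a5 was at 0.962, 1.13, 0.807 and 0.873 and 0.402, 0.431, 0.425 and 0.502 (log2 1.11), and Col6a6 at 2.08, 2.47, 1.04 and 1.87 and 1.13, 0.978, 0.860 and 0.981 (log2 0.93), where ovary replicate 3 fell among the kidney libraries. Col28a1 was low in both organs, at 0.185, 0.163, 0.127 and 0.148 and 0.0876, 0.134, 0.0781 and 0.0673 (log2 0.76, adjusted p = 0.0263), and the call was lost without ovary replicate 1 and without kidney replicate 1, 3 or 4, with DESeq2 and without the filter (adjusted p from 0.0616 to 0.0907).

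Of the 7 fibril-associated chains tested 6 were higher in ovary and 1 was lower. Col12a1, found in dense connective tissue, stood at 19.1, 12.6, 23.5 and 17.4 CPM per kb in ovary and 2.41, 2.48, 2.57 and 2.95 in kidney (log2 2.81, SE 0.17). Its close relative Col14a1 went the other way, at 1.68, 2.48, 1.47 and 1.72 and 7.68, 8.41, 7.64 and 9.38 (log2 -2.16, SE 0.14, adjusted p = 2.32e-08). No library of either chain fell in the range of the other organ. Col16a1 was at 17.0, 16.8, 18.0 and 15.6 and 6.13, 5.84, 6.42 and 6.95 (log2 1.42). Col9a2 was at 11.4, 4.86, 8.85 and 4.99 in ovary, where replicates 1 and 3 lay well above 2 and 4, and at 0.0141, 0.0555, 0.113 and 0.0417 in kidney, from 15 counts in all (log2 7.09, SE 0.50). Col9a3 was at 0.701, 0.679, 0.512 and 0.526 and 0.176, 0.146, 0.201 and 0.187 (log2 1.77). Of the Col9a3 exon bases 7.68% are shared with Tcfl5 on the opposite strand, and the counting did not separate reads by strand. Collagen IX normally needs Col9a1, which had no count in these 8 libraries. Col22a1, a collagen of tissue junctions such as that of muscle and tendon, had 482 counts over the 4 vehicle ovary libraries and 2 over the 4 vehicle kidney libraries. The ratio of counts per assigned pair, without TMM scaling, was 203 with a 95% counting interval of 56.0 to 1683. In the fit with TMM scaling the fold was 142 (log2 7.15, SE 0.44). Both kidney counts came from replicate 4, and the fitted log2 difference was 6.78 to 7.24 with any other library left out and 9.72 without that one, where the kidney libraries are all at 0 and the value is no bound. Col20a1 was at 2.26, 2.46, 1.44 and 1.86 and 1.23, 1.44, 1.53 and 1.70 (log2 0.45, adjusted p = 0.0220), with overlap, and the call was lost without kidney replicate 1 or 2 (adjusted p = 0.0765 and 0.0546 in the same edgeR test).

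The remaining classes were mixed. Col15a1, a vascular basement membrane chain, was at 35.6, 35.8, 43.1 and 33.9 CPM per kb in ovary and 9.21, 11.3, 8.77 and 10.3 in kidney (log2 1.92), while its relative Col18a1 differed least of the called chains (log2 0.21, SE 0.073, adjusted p = 0.0180). The Col18a1 call was lost without kidney replicate 1 or 4 (adjusted p = 0.0711 and 0.0565 in the edgeR test). Col26a1, known from testis and ovary, was lower in ovary than in kidney, at 1.90, 2.03, 1.56 and 1.55 and 6.12, 6.21, 7.16 and 6.10 (log2 -1.85, SE 0.12). Of the 4 transmembrane chains 2 were higher in ovary: Col13a1 at 2.60, 2.71, 1.90 and 2.36 against 0.863, 0.735, 1.02 and 0.789 (log2 1.50) and Col25a1 at 0.727, 0.576, 0.562 and 0.826 against 0.134, 0.143, 0.0734 and 0.155 (log2 2.40). Col17a1 and Col23a1 were not called (log2 -0.30 and -0.23). Col8a2 was higher in ovary, at 1.12, 1.44, 1.14 and 1.05 against 0.542, 0.365, 0.632 and 0.742 (log2 1.07), as was Col10a1, a chain of hypertrophic cartilage, at 0.298, 0.335, 0.290 and 0.211 against 0.0132, 0.0389, 0.0302 and 0.0910 (log2 2.67). Neither Col8a1, the partner of Col8a2 in short-chain networks, nor Col7a1, the anchoring fibril chain, passed the threshold (log2 0.17 and -0.21, adjusted p = 0.0876 and 0.0546), though the organs did not overlap for Col7a1. The 4 uncalled chains without library values here had mean levels in ovary and kidney of 1.10 and 1.28 (Col7a1), 3.30 and 2.96 (Col8a1), 2.10 and 2.37 (Col5a3) and 0.480 and 0.569 (Col23a1) CPM per kb. Over all 41 chains the vehicle libraries of the organs did not overlap for 32, beside 77.5% of all genes.

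**Figure D3:**
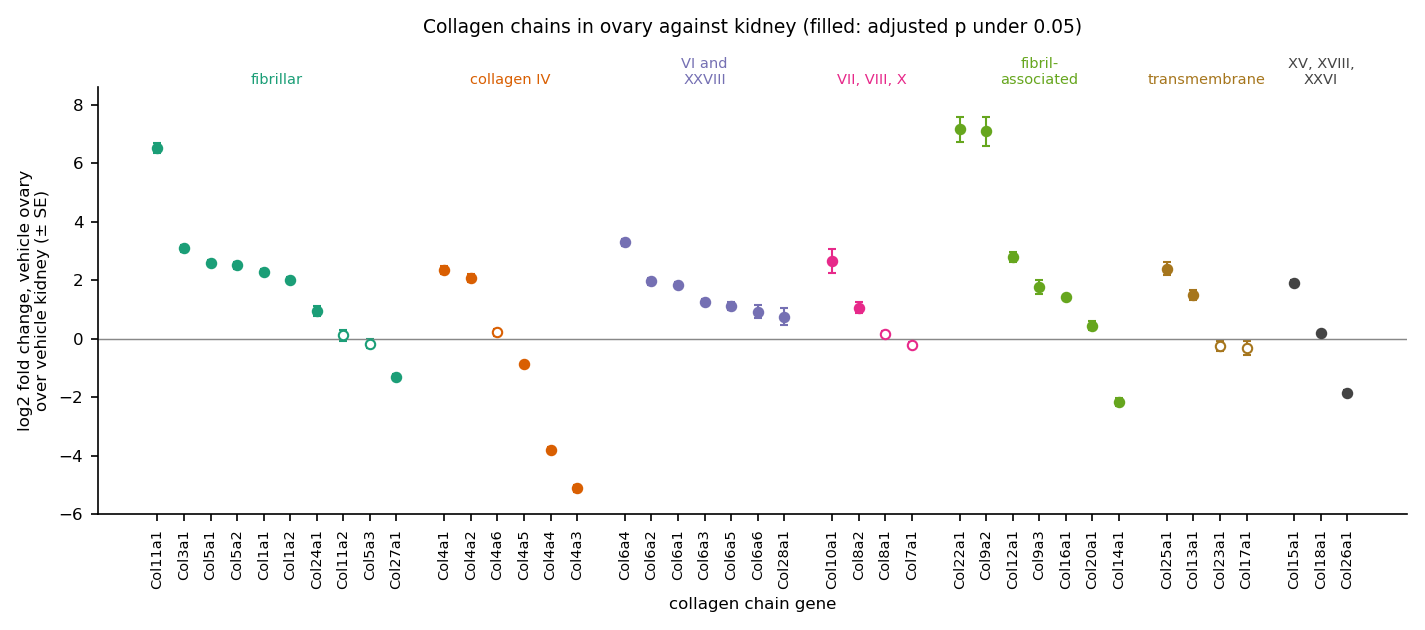
Log2 fold change of vehicle ovary over vehicle kidney with its SE for the 41 chains tested, grouped by class; filled points had an adjusted p under 0.05. Of the called chains 28 lie above 0 and 6 below it, from -5.11 for Col4a3 to 7.15 for Col22a1, whose kidney counts are close to 0.

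No collagen chain passed the threshold for PT-2385 against vehicle in ovary. Of 41 chains tested 0 were called by edgeR's quasi-likelihood test, beside 0.0497% of all genes (9 of 18125, with 0.00552% higher and 0.0441% lower). At an unadjusted p under 0.05 there were 5 chains, Col22a1, Col10a1, Col25a1, Col4a5 and Col15a1, and 2392 genes in all. DESeq2 called 1 of 41 chains, Col22a1, beside 292 of 17193 genes, and limma-voom 0, beside 3 of 18125 genes. Over the 41 chains 25 log2 fold changes were above 0 and the median was 0.043, beside 8923 of 18125 and a median of -0.0030 over all genes.

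None of the abundant ovary chains passed the test. Col4a1 stood at 641, 714, 821 and 736 CPM per kb with PT-2385 (log2 0.26, SE 0.13, adjusted p = 0.419), Col4a2 at 353, 381, 432 and 404 (log2 0.22) and Col3a1 at 368, 460.2, 475 and 449 (log2 0.091). Both groups overlapped for each of them. Col1a2 was at 164, 201, 209 and 190.4 (log2 0.031), Col1a1 at 144, 178, 188 and 157 (log2 0.088), Col6a1 at 75.7, 89.0, 87.8 and 86.1 (log2 -0.087), Col18a1 at 60.3, 60.9, 68.5 and 64.7 (log2 0.043) and Col5a2 at 48.4, 57.2, 59.4 and 54.4 (log2 0.084). None of these 8 had an adjusted p below 0.419. Of the 10 fibrillar chains tested 9 had a fold change above 0, the largest 0.17 for Col5a1 (SE 0.10), and Col11a1 was at -0.26 (SE 0.13).

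Col22a1 had the smallest p in ovary and was the only chain whose groups did not overlap, beside 6.9% of all genes. It stood at 0.342, 0.438, 0.412 and 0.417 CPM per kb with vehicle and 0.549, 0.672, 0.659 and 0.535 with PT-2385, from 482 and 579 counts in all (log2 0.58, SE 0.14, adjusted p = 0.125). The gene lies on chromosome 15 at 71667644 to 71906076 on the minus strand. Its adjusted p was 0.0157 with DESeq2, 0.0415 without the filter, 0.0477 with a replicate block and 0.0387 without ovary vehicle replicate 3, and it reached 0.483 without PT-2385 replicate 3. Col10a1 was at 0.298, 0.335, 0.290 and 0.211 in vehicle libraries and 0.105, 0.115, 0.120 and 0.243 in treated ones (log2 -0.90, SE 0.31, adjusted p = 0.252), with replicate 4 of the treated group among the vehicle libraries. Col25a1 was at 0.727, 0.576, 0.562 and 0.826 and 0.812, 0.816, 0.963 and 0.900 (log2 0.38, adjusted p = 0.306), and Col4a5 at 11.3, 10.9, 10.2 and 10.5 and 8.29, 9.51, 10.3 and 9.91 (log2 -0.18, adjusted p = 0.326), both with overlap.

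Leaving out ovary vehicle replicate 3 changed the ovary calls. Without it 1090 genes were called in place of 9, and among the chains Col22a1 and Col15a1 (log2 0.27, adjusted p = 0.0479) passed the threshold. Col4a1 and Col4a2 then stood at log2 0.37 and 0.34, with adjusted p of 0.0527 and 0.0524 in the edgeR test. That library had the highest level of Col4a1, Col4a2, Col3a1, Col1a1 and Col1a2 among the vehicle ovaries. Without ovary vehicle replicate 1 or 4, or PT-2385 replicate 2 or 3, 0 genes were called.

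In kidney 3 chains were called for PT-2385 against vehicle: Col17a1 and Col4a3 as lower and Col20a1 as higher. They were 3 of 37 chains tested (8.11%), beside 5.53% of all genes called (982 of 17763, with 1.83% higher and 3.7% lower). At an unadjusted p under 0.05 there were 8 chains and 4101 genes. Of the 37 chains 18 had a fold change above 0, with a median of -0.029, beside 0.0066 over all genes. Groups did not overlap for 4 chains, Col17a1, Col4a3, Col4a4 and Col20a1, beside 13.6% of all genes.

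Col17a1, the transmembrane collagen of hemidesmosomes that anchors epithelial cells to the basement membrane, fell most. It stood at 0.420, 0.435, 0.262 and 0.313 CPM per kb with vehicle and at 0.189, 0.103, 0.192 and 0.137 with PT-2385 in replicates 1 to 4, from 57, 60, 31 and 43 and 23, 7, 43 and 19 counts. Every treated library lay below every vehicle library. The log2 fold change was -1.12 (SE 0.23, adjusted p = 0.0127), a level 0.460 times that with vehicle. It kept its call without the mitochondrial and haemoglobin genes (log2 -1.12). DESeq2 gave it a log2 fold change of -1.14 and an unadjusted p of 7.75e-05 but, by its filter on low means, no adjusted p, so DESeq2 made no call on it. Without PT-2385 replicate 4 or vehicle replicate 2 it did not pass the threshold (adjusted p = 0.0546 and 0.0524 in the same edgeR test). In ovary the same gene was at 0.269, 0.225, 0.406 and 0.253 in vehicle libraries and 0.235, 0.250, 0.310 and 0.413 in treated ones (log2 0.082, SE 0.24). The gene lies on chromosome 19 at 47634783 to 47680533 on the minus strand.

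Col4a3 fell by less, with high counts behind it. Its level was 70.3, 75.9, 63.0 and 61.1 CPM per kb with vehicle and 53.3, 59.3, 58.5 and 55.2 with PT-2385, means of 67.6 ± 6.83 and 56.6 ± 2.80 (SD, n = 4). The treated libraries lay just below the vehicle libraries, the nearest being 59.3 and 61.1. The log2 fold change was -0.24 (SE 0.064, adjusted p = 0.0399). Its neighbour and partner Col4a4 was at 61.3, 63.7, 55.0 and 55.1 and 52.6, 53.0, 54.0 and 53.3 (log2 -0.13, SE 0.052, adjusted p = 0.157), also without overlap but not called, and Col4a5 was at 20.7, 20.3, 18.8 and 19.5 and 18.9, 19.5, 20.6 and 19.5 (log2 0.0024, SE 0.046). The ratio of Col4a4 to Col4a3 was 0.871 ± 0.0255 with vehicle and 0.942 ± 0.0416 with PT-2385, and that of Col4a5 to Col4a3 0.295 ± 0.0215 and 0.347 ± 0.0120. The Col4a3 call was lost in a fit over all 16 libraries (adjusted p = 0.162), and without vehicle replicate 1 or 2 or PT-2385 replicate 1, 3 or 4 (adjusted p from 0.0763 to 0.147). Of its exon bases 3.20% are shared with a gene on the opposite strand, C430014B12Rik, and the counting did not separate reads by strand.

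Podocytes, which make the Col4a3, Col4a4 and Col4a5 network of the glomerular filter but need not be its only source in whole kidney, had markers with fold changes of the opposite sign. All 6 podocyte markers had a fold change above 0 in kidney with a median of 0.21, and 2 were called, Wt1 (log2 0.27, adjusted p = 0.0250) and Synpo (log2 0.28, adjusted p = 0.0392). Over all genes 9156 of 17763 had a fold change above 0 and 5.53% were called. Nphs1, a slit diaphragm gene, was at 0.19 (adjusted p = 0.122). The summed markers ran from 642 to 783 CPM in vehicle kidneys and from 768 to 911 CPM in treated ones, ranges that overlap. The Wt1 call was lost without PT-2385 replicate 3 or 4, without vehicle replicate 2 and in the fit over all 16 libraries (adjusted p from 0.0633 to 0.129). The Synpo call was lost without PT-2385 replicate 2, 3 or 4, without vehicle replicate 3 and in that fit (adjusted p from 0.0623 to 0.147). Their part in the Col4a3 and Col4a4 results was not tested.

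Col20a1, a fibril-associated chain, rose in kidney. It stood at 1.23, 1.44, 1.53 and 1.70 CPM per kb with vehicle and at 2.04, 1.73, 1.98 and 1.79 with PT-2385 (log2 0.38, SE 0.11, adjusted p = 0.0481), with the highest vehicle library just under the lowest treated one. In ovary it was at 2.39, 2.09, 1.93 and 1.97 with PT-2385 (log2 0.053, SE 0.15). The kidney call was close to the threshold: it was lost with a replicate block (adjusted p = 0.0579), in the fit over all 16 libraries (adjusted p = 0.218), and without vehicle replicate 1 or 2 or any 1 of the 4 PT-2385 libraries (adjusted p from 0.0518 to 0.150). The gene lies on chromosome 2 at 180628328 to 180660156 on the plus strand.

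The other kidney chains were not called. Col11a2 was at 0.581, 0.592, 0.674 and 0.619 CPM per kb with vehicle and 0.927, 0.613, 0.788 and 0.843 with PT-2385 (log2 0.40, SE 0.13, adjusted p = 0.0815), and passed without PT-2385 replicate 2 (adjusted p = 0.0424). Col6a6 was at 1.13, 0.978, 0.860 and 0.981 and 0.889, 0.736, 0.637 and 0.426 (log2 -0.56, SE 0.18, adjusted p = 0.0872), and passed with DESeq2, without the filter, with a replicate block and without PT-2385 replicate 1 (adjusted p from 8.91e-05 to 0.0266). Col25a1 was at 0.134, 0.143, 0.0734 and 0.155 and 0.0781, 0.0349, 0.0989 and 0.0398, from 86 and 50 counts (log2 -0.86, SE 0.33, adjusted p = 0.125). All 4 transmembrane chains had a fold change below 0, beside 8607 of 17763 genes. Of these chains Col13a1 (log2 -0.12, SE 0.16) and Col23a1 (log2 -0.034, SE 0.16) lay within their SE of 0. The abundant chains were close to 0: Col4a1 at 101, 119, 113 and 118 with PT-2385 (log2 -0.057, SE 0.062), Col4a2 at 69.7, 75.2, 78.3 and 81.3 (log2 -0.053, SE 0.052), Col18a1 at 48.2, 50.5, 53.5 and 55.6 (log2 -0.029) and Col3a1 at 53.1, 47.1, 40.0 and 39.0 (log2 -0.091). Col1a1 was at 38.8, 34.2, 28.1 and 27.3 and Col1a2 at 48.5, 47.9, 41.3 and 41.3, with the treated replicates 1 and 2 above 3 and 4 for both.

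**Figure D4:**
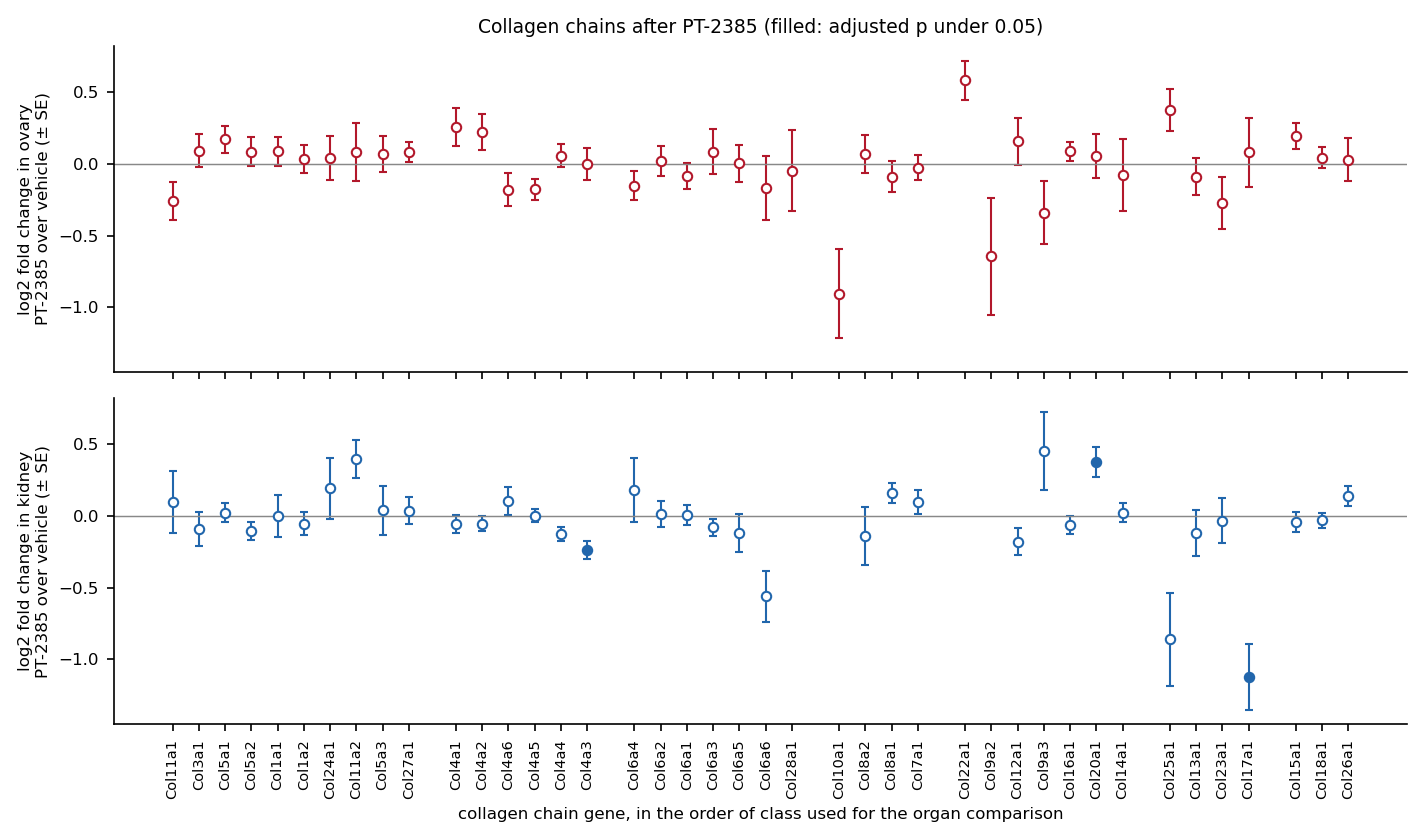
Log2 fold change of PT-2385 over vehicle with its SE for each chain tested, in ovary (top) and kidney (bottom), in 1 order of classes; filled points had an adjusted p under 0.05. No chain is filled in ovary, and 3 are filled in kidney: Col4a3 (-0.24), Col20a1 (0.38) and Col17a1 (-1.12).

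**Figure D5:**
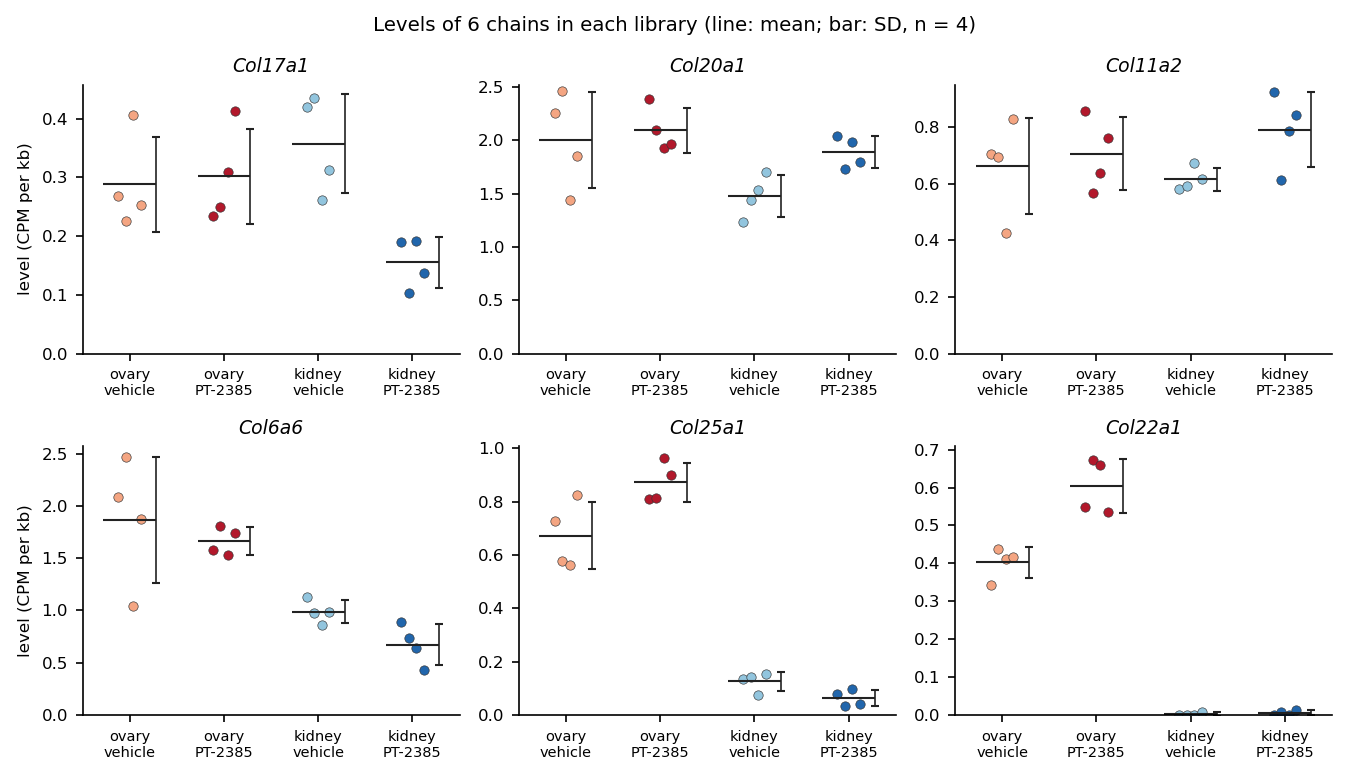
Level (CPM per kb, linear axis from 0) of Col17a1, Col20a1, Col11a2, Col6a6, Col25a1 and Col22a1 in each library of the 4 groups, with the mean as a line and the SD as a bar (n = 4). Col17a1 separates in kidney and not in ovary, Col22a1 separates in ovary and is at or near 0 in kidney, and Col20a1 separates in kidney by a narrow gap.

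The difference between the organs' responses was tested directly, as the interaction over all 16 libraries. It called 0 of 41 chains, beside 0.19% of all genes (38 of 19977, with 0.16% higher and 0.03% lower). At an unadjusted p under 0.05 there were 5 chains, Col25a1, Col17a1, Col9a3, Col4a1 and Col15a1, and 2397 genes. DESeq2 called 1 of 38 chains, Col25a1 (adjusted p = 0.0290), beside 283 of 15414 genes, and limma-voom 0, beside 28 of 19977 genes. Col25a1, a transmembrane collagen of neurons and muscle, had a response 1.25 log2 units higher in ovary than in kidney (SE 0.35, adjusted p = 0.146). For Col17a1 this was 1.23 (SE 0.35, adjusted p = 0.160), so the fall in kidney is not shown to differ from the response in ovary. Col9a3 was at -0.77 (adjusted p = 0.379), with levels of 0.503, 0.318, 0.494 and 0.594 with PT-2385 in ovary and 0.287, 0.135, 0.238 and 0.264 in kidney, and Col4a1 at 0.33 (adjusted p = 0.386). Without ovary vehicle replicate 3 the test called 813 genes and 3 chains, Col17a1 (log2 1.44, adjusted p = 0.0195), Col4a1 (log2 0.45, adjusted p = 0.0436) and Col4a2 (log2 0.42, adjusted p = 0.0373). Without it and kidney PT-2385 replicate 3 it called Col17a1 (log2 1.58, adjusted p = 0.0352) and Col25a1 (log2 1.57, adjusted p = 0.0411).

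Genes that make, bind and degrade collagen were read in the same fits. Of 34 genes for biosynthesis and crosslinking, 0 were called in ovary and 2 of 32 tested in kidney, beside 0.0497% and 5.53% of all genes. There Mia2, which helps load collagen for export from the endoplasmic reticulum, fell (log2 -0.22, SE 0.049, adjusted p = 0.0173) and Loxl2, a crosslinking lysyl oxidase, rose (log2 0.20, SE 0.057, adjusted p = 0.0485). The Mia2 call was lost without PT-2385 replicate 3 or 4, without vehicle replicate 2 and in the fit over all 16 libraries (adjusted p from 0.0668 to 0.129). That of Loxl2 was lost in 10 of 17 alternatives, among them the removal of any 1 library other than vehicle replicate 4 (adjusted p from 0.0510 to 0.425). The medians of this list were 0.023 in ovary and 0.019 in kidney. Those with the smallest p in ovary were P4ha2, a collagen prolyl hydroxylase subunit, at 36.4 ± 4.87 CPM in vehicle ovaries and 44.8 ± 1.56 CPM in treated ones (log2 0.30, adjusted p = 0.207), and P3h2 (log2 0.25, adjusted p = 0.236). P4ha2 passed without ovary vehicle replicate 3 (adjusted p = 0.0413).

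Receptors, proteases and matrix partners had few calls, beside 0.0497% of all genes called in ovary and 5.53% in kidney. Of 11 collagen receptors tested 0 were called in ovary, where Itga11 was at -0.25 and Itga2 at 0.24 on the log2 scale (adjusted p = 0.283 and 0.311). In kidney 1 was called, the integrin chain Itga10, at 4.20 ± 0.213 CPM in vehicle kidneys and 5.76 ± 0.888 CPM in treated ones (log2 0.50, SE 0.12, adjusted p = 0.0288). The Itga10 call was lost without PT-2385 replicate 3 or 4, without vehicle replicate 2 or 4 and in the fit over all 16 libraries (adjusted p from 0.0537 to 0.212). Of 8 collagen-degrading proteases 0 were called in either organ, with medians of -0.16 in both. The membrane-bound matrix metalloproteinases Mmp15 and Mmp14 were at -0.37 and -0.14 in ovary (adjusted p = 0.185 and 0.446). Mmp15 passed without the filter, with a replicate block, in the fit over all 16 libraries and without ovary vehicle replicate 3 (adjusted p from 0.00726 to 0.0483). Ctsk, a lysosomal collagenase, and the gelatinase Mmp2 were at -0.27 and -0.17 in kidney (adjusted p = 0.145 and 0.283), and Ctsk passed without PT-2385 replicate 2 (adjusted p = 0.0444). Of 17 basement membrane partners 2 fell in kidney, Nid2, which links laminin to collagen IV (log2 -0.22, adjusted p = 0.0304), and Npnt, an integrin ligand (log2 -0.23, adjusted p = 0.0325), while 0 were called in ovary, where Agrn was at -0.33 and Lamb2 at 0.16 (adjusted p = 0.189 and 0.398). Agrn passed without the filter and in the fit over all 16 libraries (adjusted p = 0.0133 and 0.0411). The kidney call of Nid2 was lost without PT-2385 replicate 1, 3 or 4, without vehicle replicate 2 and in the fit over all 16 libraries (adjusted p from 0.0740 to 0.118). That of Npnt was lost without any 1 of the 4 PT-2385 libraries, without vehicle replicate 1 or 2 and in that fit (adjusted p from 0.0568 to 0.220). Of 22 fibril-binding proteins 0 were called in either organ. Vcan was at 0.40 and Tnxb at -0.62 in ovary (adjusted p = 0.356 and 0.321), and Sparc at 0.16 and Eln at 0.26 in kidney (adjusted p = 0.0872 and 0.127). Tnxb passed with the replicate block (adjusted p = 0.0306), Sparc with DESeq2, without the filter and without vehicle replicate 4 (adjusted p from 0.0353 to 0.0460), and Eln with DESeq2 and without the filter (adjusted p = 0.0487 and 0.00065).

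Markers of the cells that produce these chains were read beside them. In kidney the smooth muscle genes Des (log2 0.30, adjusted p = 0.0357) and Myh11 (log2 0.26, adjusted p = 0.0298) were higher with PT-2385, and the proximal tubule receptor Cubn (log2 -0.44, adjusted p = 0.0288) and the macrophage receptor Csf1r (log2 -0.27, adjusted p = 0.0251) were lower. Of 6 smooth muscle markers 2 were called and 5 had a fold change above 0. Of 6 proximal tubule and 6 macrophage markers 1 each was called and 1 each was above 0. The share of all genes called was 5.53%. With vehicle and PT-2385 the smooth muscle sums were 210 to 253 and 252 to 307 CPM. Those of proximal tubule were 21056 to 23373 and 19458 to 21426 CPM, and those of macrophage 109 to 121 and 91.5 to 107 CPM. Only the macrophage sums did not overlap. The call of Des was lost without PT-2385 replicate 2, 3 or 4, without vehicle replicate 1 or 2 and in the fit over all 16 libraries (adjusted p from 0.0637 to 0.733), and that of Myh11 without PT-2385 replicate 1, 2 or 4, without vehicle replicate 1, 2 or 4 and in that fit (adjusted p from 0.0569 to 0.379). The call of Cubn was lost without PT-2385 replicate 1, 3 or 4 or vehicle replicate 2 (adjusted p from 0.0697 to 0.101), and that of Csf1r without PT-2385 replicate 2 or 4 or vehicle replicate 2 and in the fit over all 16 libraries (adjusted p from 0.0538 to 0.136). The 7 fibroblast markers summed to 341 to 406 CPM in vehicle kidneys and 367 to 379.9 CPM in treated ones, and 0 of them were called. In ovary 0 markers of any cell type listed were called, and fibroblast markers summed to 609 to 721 CPM in vehicle ovaries and 634 to 748 CPM in treated ones. The 6 endothelial markers summed to 516 to 620.4 CPM in vehicle ovaries and 485 to 527 CPM in treated ones. For smooth muscle these ovary sums were 1369.5 to 1925 and 1460.5 to 2270 CPM. For granulosa they were 1559.9 to 1925 and 1750 to 2306 CPM, and for theca 735 to 1036 and 770 to 923 CPM. The ranges of vehicle and PT-2385 ovaries overlapped for each of these sets. The part of these cell types in the chain results was not tested.

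HIF factors bind DNA at a short core, and the bases before the start of the genes were searched for it as a description. RefSeq promoter windows on GRCm38.p6 matched 35 of the 44 chain genes, in 38 windows. The cores ACGTG and GCGTG, searched on both strands in the 250 bases before each start, were present in 11 of 38 windows (28.9%), beside 38.6% of all 32851 windows. ACGTG alone was in 13.2% of the chain windows and 16.6% of all, and GCGTG in 21.1% and 28.2%. The palindrome CACGTG holds a match to ACGTG on each strand. The 250 bases before the starts of Col17a1 (chr19:47692043-47692292, minus strand) and Col20a1 (chr2:180986285-180986534, plus strand) are shown because these 2 chains were called in kidney, and neither holds a core. Col4a3, the other chain called there, had no window, while the window of its neighbour Col4a4 held 1 ACGTG. Those of Col6a6 (chr9:105828086-105828335, minus strand) are shown because they hold 1 ACGTG and 3 GCGTG, the most of any chain window, with each match in capitals (CACGT and CACGC are matches on the other strand).
Col17a1: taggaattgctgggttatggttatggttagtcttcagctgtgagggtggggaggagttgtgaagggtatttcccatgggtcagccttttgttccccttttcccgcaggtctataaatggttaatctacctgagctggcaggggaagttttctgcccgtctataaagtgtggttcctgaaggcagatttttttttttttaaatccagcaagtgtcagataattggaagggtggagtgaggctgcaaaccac
Col20a1: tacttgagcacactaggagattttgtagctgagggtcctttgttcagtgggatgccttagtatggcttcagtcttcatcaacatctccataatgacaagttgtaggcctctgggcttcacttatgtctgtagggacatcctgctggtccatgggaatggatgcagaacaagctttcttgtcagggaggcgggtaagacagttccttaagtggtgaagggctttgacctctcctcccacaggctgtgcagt
Col6a6: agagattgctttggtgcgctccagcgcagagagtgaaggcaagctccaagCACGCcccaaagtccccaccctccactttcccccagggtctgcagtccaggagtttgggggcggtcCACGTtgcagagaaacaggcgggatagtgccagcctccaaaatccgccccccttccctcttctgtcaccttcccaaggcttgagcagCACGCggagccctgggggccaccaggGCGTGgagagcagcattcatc
A match or its absence says nothing on binding in these organs.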

How the data were processed

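Polyadenylated RNA was sequenced in 8 ovary and 8 kidney libraries after a stranded preparation, per the labels' protocols. The deposited values are raw counts: the authors counted read pairs over exons by gene with featureCounts 2.0.6 and GENCODE mouse release 27 (basic), with no strand option, per the file headers. Pairs in exons that overlap on opposite strands were therefore not told apart by strand. Alignment used STAR on GRCm39, per the submitters' processing notes, with versions not given in the sources used here. Depth was 12689770 to 43295974 pairs per library, so chains with few counts carry the largest counting error.

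Symbols came from GENCODE release 21 by identifier (94.1% matched). Counts were tested in R 4.3.3 with edgeR 4.0.16 (TMM, filterByExpr with a minimum count of 10, robust quasi-likelihood fit), each organ on its own, and the interaction over all 16 libraries. Benjamini-Hochberg adjustment ran over all genes tested, with calls at an adjusted p under 0.05. The test was also run on simulated counts with known changes, drawn as independent libraries. That run does not bear on how calls shift when single libraries are left out. Alternatives were DESeq2 1.42.0, limma-voom (limma 3.58.1), other scaling and filters, a replicate block, and left-out libraries. The ratios between organs without TMM scaling and on the TPM scale were added after seeing the data. Intervals on counts cover counting error only. Values in each library are given for the 8 highest chains per organ, each called chain, and the 4 with the smallest p in each treatment test, and from other lists for called genes or those with the smallest p. Members and lists were chosen with earlier results of these data known. One marker gene's own values are not reported here.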

Additional observations from a re-analysis of the deposited data

Results flagged for a closer look

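In 11 of 185 groups of 4 values tested, 1 library lay far from the other 3 by Dixon's criterion, and chance gives about 1 in 20. None of these values was left out. In PT-2385 kidney, replicate 1 had the lowest Col14a1 (7.66 CPM per kb, others 8.5 to 8.63) and Col16a1 (5.67, others 6.07 to 6.13) and the highest Col6a4 (1.51, others 0.743 to 0.857). Replicate 2 of that group, the shallowest library, had the lowest ratios of Col4a2 to Col4a1 (0.635, others 0.687 to 0.692), Col4a5 to Col4a3 (0.329, others 0.353 to 0.354) and Col11a2 to Col11a1 (3.57, others 4.98 to 5.04). Its collagen share was the highest, 0.42% against 0.397% to 0.401%. In vehicle kidney, replicate 3 had the highest Col26a1 (7.16 CPM per kb, others 6.1 to 6.21). In ovary, PT-2385 replicate 4 was high for Col10a1 (0.243, others 0.105 to 0.12), PT-2385 replicate 3 was high for Col8a2 (1.38, others 1.19 to 1.22), and vehicle replicate 2 was high in the ratio of Col8a2 to Col8a1 (0.489, others 0.315 to 0.326).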

How the results depend on the processing

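In ovary the genes called for PT-2385 numbered 9, and 292 with DESeq2, 3 with limma-voom, 330 without the filter, 395 with a replicate block, 325 in the fit over all 16 libraries and 1090 without the libraries whose file names deviate. Collagen chains called were then 0, and 1 with DESeq2, 1 without the filter, 1 with the replicate block and 2 without the deviating libraries. In kidney 982 genes were called, and 1761 without the filter, 286 over all 16 libraries and 240 without the deviating libraries, with 1 chain in place of 3 in each of the last 2 settings. The interaction called 38 genes, and 20 with median-ratio scaling, 283 with DESeq2, 167 without the filter and 378 without the deviating libraries, with 1 chain with DESeq2 and 2 without the deviating libraries. Leaving out 1 library at a time gave 0 to 1090 genes and 0 to 2 chains in ovary, 240 to 1370 genes and 0 to 3 chains in kidney, and 0 to 813 genes and 0 to 3 chains in the interaction. The cause of these shifts was not tested.

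On the TPM scale the ovary levels were 1745 (Col4a1), 1179 (Col3a1), 966 (Col4a2), 536 (Col1a2), 449.7 (Col1a1), 258 (Col6a1), 177 (Col18a1) and 148 (Col5a2). In kidney they were 238 (Col4a1), 160.1 (Col4a2), 136 (Col4a3), 118 (Col4a4), 107 (Col18a1), 96.6 (Col3a1), 94.0 (Col1a2) and 64.8 (Col1a1), higher than CPM per kb by the construction of the scale. Without mitochondrial and haemoglobin genes in the total the collagen share in kidney was 0.471% with vehicle and 0.460% with PT-2385. For the PT-2385 comparisons some signs changed. Ovary Col1a2 was at -0.0074 without PT-2385 replicate 3 and -0.011 without vehicle replicate 4, with 0.097 as the highest value when 1 library was left out. Kidney Col18a1 was at 0.0028 without PT-2385 replicate 1 and as low as -0.060 without replicate 4, and kidney Col1a2 at 0.016 without vehicle replicate 4 and as low as -0.097 without PT-2385 replicate 1. Kidney Col1a1, at 0.00070 in log2, was at -0.012 with limma-voom, -0.00089 without the filter, -0.0067 with the replicate block, -0.0011 without mitochondrial and haemoglobin genes, -0.017 over all 16 libraries, and at -0.11, -0.040, -0.051, -0.031 and -0.0030 with single libraries left out, with a highest value of 0.090 without vehicle replicate 4.

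Libraries share replicate numbers across groups, but the labels do not say that a number marks a pair. Residuals of same-numbered libraries correlated across genes at -0.03, 0.29, 0.34 and -0.24 in ovary and at -0.0004, 0.084, 0.078 and -0.079 in kidney, and between the organs from -0.034 to 0.082 in the 8 same-numbered pairs. Not every pair was over 0.1, so the numbers were not taken as pairs, and whether same-numbered libraries share a mouse is not known. The replicate block gave 395 genes and 1 chain in ovary, 1274 and 3 in kidney, 52 and 0 in the interaction and 15356 and 34 between organs. Col17a1 in kidney rests on 7 to 60 counts per library.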
